A study of Mus musculus with 2 samples.

Results

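The genes of the leukotriene and lipoxygenase pathway, 8 of the 31053 genes listed, were taken by symbol and followed through single leukocytes of mouse melanomas: Pla2g4a, Alox5, Alox5ap, Lta4h, Ltc4s, Alox15, Ltb4r1 and Cysltr1. All 8 had unique molecular identifiers (UMIs, 1 per captured transcript) among the cells kept. The cells were CD45+ leukocytes sorted on day 4 from tumors grown from Ptgs-/- cells of a Braf-mutant melanoma line in C57BL/6 mice 8 weeks old, and single cells were read with 10x 3' chemistry. The control hosts received no depleting antibody, and the NK cell-depleted hosts received 200 µg of anti-NK1.1 (PK136) and 30 µg of anti-asialo GM1 on days 0 and 2. Each group was 1 library made from pooled tumors, with parental melanoma cells added to the sorted leukocytes. The genotype labels of both samples call the tumor cells wildtype while their titles name the knockout, which touches both groups alike. With 1 library per group there was no replicate check, so differences are given as counts with 95% intervals that cover counting error only, and no test was run.

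Leukotrienes are lipid signals that leukocytes make from arachidonic acid. Cytosolic phospholipase A2 frees the acid from membranes, 5-lipoxygenase and its membrane partner turn it into leukotriene A4, and the cell then makes either leukotriene B4, which draws neutrophils and other leukocytes, or the cysteinyl leukotrienes, known for their action on vessels and airways. The lipids themselves were not measured, and all values are transcript counts.

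The control library held 5292 cells and the NK cell-depleted library 4506, with medians of 4170 and 4893 UMIs per cell, and 5 barcodes occurred in both. Clustering with all pathway genes left out gave 11 classes, each named from marker genes. Monocyte/macrophage-like cells were 67.4% of control and 71.3% of NK cell-depleted cells, in 10 clusters. Neutrophil-like cells were 7.79% and 10.9%, and eosinophil-like cells were 0.227% and 1.58% (12 and 71 cells). The cluster named NK-like held 566 and 20 cells. Its 20 cells of the depleted library had no UMI of Ncr1, Gzma, Prf1, Eomes, Klra8 or Klra4. Their NK markers summed to 224 CPM against 12188 CPM in control, and their 11 T markers, all detected, to 4156 CPM, near the 4626 CPM of T-like cells. No ratio of the 8 genes is given for those 20 cells. Their marker counts rest on 84697 UMIs, against 1397053 in the NK-like cells of control. The T-like cluster also held all 6 markers of the type 2 innate lymphoid cell list. Of the 13 markers of the melanoma list, 6 were detected in the melanoma-like cells of control and 7 in those of the depleted library, and Sox10, Pmel, Mlana and Dct were at 0 in both. All 8 markers of the mast cell list were detected in the NK-like and T-like clusters of control (915 and 375 CPM in sum), against 1 in each of those clusters of the depleted library (11.8 and 39.3 CPM), so these clusters held some transcripts of mast cells, whose part in the results was not tested. The counting intervals of the monocyte/macrophage-like class are narrow (20021657 and 19040847 UMIs in all) and those of the eosinophil-like class wide (9567 and 47251 UMIs).

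**Figure D1:**
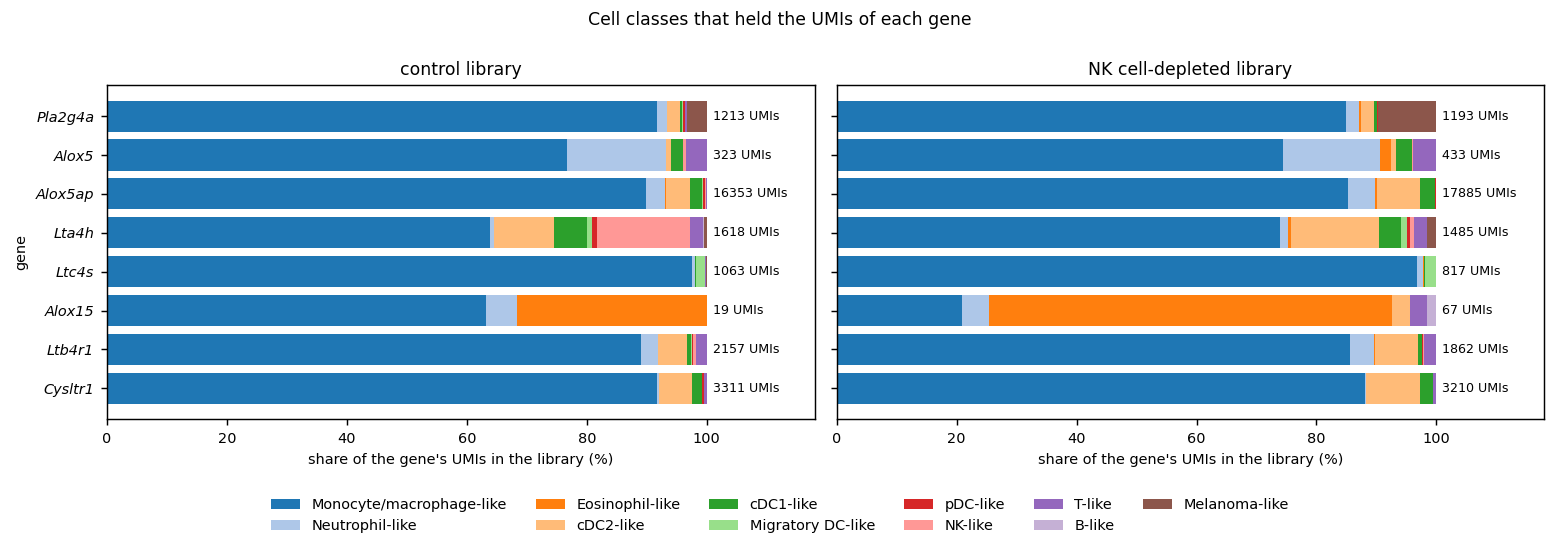
Share of each gene's UMIs (x axis, percent of the library's UMIs of that gene) held by each of the 11 cell classes, control library on the left and NK cell-depleted library on the right, with the gene's UMI total at the bar's end. Monocyte/macrophage-like cells held 63.9% to 97.5% of the UMIs of every gene other than Alox15, whose 67 UMIs in the NK cell-depleted library lay to 67.2% in eosinophil-like cells. Of the UMIs of all genes, the class held 20021657 of 24810009 in control and 19040847 of 23245982 in the depleted library. A high share is therefore not by itself a high level in the class.

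Other settings moved these shares. With at least 2000 UMIs and at most 5% mitochondrial UMIs per cell, 3 clusters, led by Dcstamp, by Rhov and by Retnla, went unnamed, and monocyte/macrophage-like cells held 39.6% of Alox5, 37.4% of Lta4h and 51.2% of Ltb4r1 UMIs in control and 71.2%, 57.2% and 54.7% in the depleted library.

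Pla2g4a (chr1:149829618-149961290, GRCm38, minus strand) encodes cytosolic phospholipase A2, which releases arachidonic acid. In monocyte/macrophage-like cells its level was 55.5 CPM (UMIs per 1000000 UMIs of the class; 95% exact Poisson interval 52.3 to 58.9) in control and 53.2 CPM (49.98 to 56.6) in NK cell-depleted tumors, a ratio of 1.04 with an interval of 0.958 to 1.14. Neutrophil-like cells were close to that, with 43.0 and 40.1 CPM. Its level was highest in melanoma-like cells, at 272 CPM (194 to 370, 40 UMIs) in control and 380 CPM (314 to 456, 116 UMIs) in the depleted library, a ratio of 0.716 (0.487 to 1.03). Parental melanoma cells had been added to each sorted sample, and whether melanoma-like cells were those or tumor cells was not tested. The ratio therefore cannot be read as one of tumor cells between the groups. With at least 2000 UMIs and at most 5% mitochondrial UMIs per cell its log2 value of -0.47 was -1.72, from 12 and 35 UMIs. A UMI of Pla2g4a was found in 38.5% of 52 and 51.4% of 70 melanoma-like cells. NK-like, T-like and B-like cells held 1, 3 and 0 UMIs of it in control and none in the depleted library. For the 20 NK-like cells of the depleted library 3 UMIs would have been 35.4 CPM.

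The upper limits on UMIs and genes left out most melanoma-like cells. Above those limits stood 109 melanoma-like cells in control and 228 in the depleted library, with medians of 27941 and 28408 UMIs. They held 1293 and 2971 UMIs of Pla2g4a, or 325 and 413 CPM, and a UMI was seen in 98.2% and 100% of them. The same cells had 0 and 1 UMI of Alox5, 8 and 18 of Alox5ap, and 4 and 1 of Ltc4s. Without the limits, monocyte/macrophage-like cells held 48.1% and 29.7% of all Pla2g4a UMIs, against 91.7% (Clopper-Pearson 95% interval 90.0% to 93.2%) and 84.9% (82.8% to 86.9%) within them.

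Alox5 (chr6:116410077-116461178, minus strand) encodes 5-lipoxygenase, the enzyme that begins leukotriene synthesis. It was sparse, with 323 UMIs in the control library and 433 in the depleted one. Its level in neutrophil-like cells was 109 CPM (81.3 to 142) in control and 108 CPM (84.1 to 136) in depleted tumors, a ratio of 1.01 (0.690 to 1.46). In monocyte/macrophage-like cells it was 12.4 CPM (10.9 to 14.0) and 16.9 CPM (15.1 to 18.9), a ratio of 0.732 (0.618 to 0.867). Neutrophil-like cells thus stood above monocyte/macrophage-like cells in both libraries with intervals far apart, although their median depth was only 1156.5 and 1295 UMIs per cell against 5107 and 5490. With every cell taken at the depth of 500 UMIs, a UMI of Alox5 would be expected in 5.19% and 5.21% of neutrophil-like cells and in 0.495% and 0.753% of monocyte/macrophage-like cells. Without thinning the shares were 12.1% and 12.4% against 5.64% and 8.28%. Eosinophil-like cells held 8 UMIs in the depleted library (169 CPM, 73.1 to 334) and 0 in control, where 3 UMIs would have been 314 CPM. Melanoma-like, migratory DC-like, B-like and pDC-like cells held none in either library.

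Within the monocyte/macrophage-like class the level of Alox5 differed between clusters, which are called here by their leading genes. Control and depleted values were 19.6 and 28.7 CPM in the Ccl8/Lyve1 cluster, 23.8 and 29.3 CPM in the Dcstamp/AA467197 cluster, and 28.5 and 19.7 CPM in the Retnla/Il6 cluster. They were 1.89 and 8.07 CPM in the Vcan/Chil3 cluster, 4.08 and 4.21 CPM in the Gpnmb/Mmp13 cluster and 5.66 and 6.44 CPM in the Pf4/Itga9 cluster. The first 3 clusters had intervals above those of the Pf4/Itga9 and Gpnmb/Mmp13 clusters in both libraries. In 9 of the 10 clusters control lay below depleted, past counting error in 2 of them: the Ccl8/Lyve1 cluster (ratio 0.684, 0.499 to 0.926) and the Vcan/Chil3 cluster (0.234, 0.0453 to 0.759, from 3 and 27 UMIs). The weights of the clusters also differed: the Ccl8/Lyve1 cluster supplied 15.3% of the class's UMIs in control and 29.0% in the depleted library. Weighting the clusters equally gave a log2 ratio of -0.27, against -0.45 as summed. With at least 2000 UMIs and at most 5% mitochondrial UMIs per cell it was -1.16, where the Dcstamp and Retnla/Il6 cells had left the class.

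The T-like cluster held 11 UMIs of Alox5 in control and 17 in the depleted library (18.5 and 35.2 CPM). These lay in 9 cells of control and 14 of the depleted library. A marker of the T list was present in 7 of the 9 and 14 of the 14, and a marker of the monocyte/macrophage list in 9 and 13. A UMI of Gata3 was present in 8 and 13, and none had a UMI of Cd3e or Trdc. Among T-like cells without Alox5, Gata3 was seen in 125 of 261 and 70 of 189, and Cd3e in 134 and 101. In those cells the T list was seen in 96.9% and 96.8%, and the monocyte/macrophage list in 73.2% and 54.0%. All of the cells with Alox5 had a UMI of the innate lymphoid list (Il5, Il13, Areg, Calca, Il1rl1, Gata3), as did 52.9% and 40.2% of the T-like cells without it. These counts were looked up after the Alox5 values were seen.

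The RefSeq table holds promoter windows for 5 of the 8 genes, Alox5, Lta4h, Ltb4r1, Ltc4s and Pla2g4a, and those of Alox5, Ltc4s and Ltb4r1 are printed, as examples of a gene each for the first enzyme, the cysteinyl branch and the leukotriene B4 receptor. Each window runs from 250 bases before to 50 after the RefSeq start, 5′ to 3′ on the gene's strand (build GRCm38.p6). Capitals mark matches on either strand to GGGCGG (the GC box) or to GAGGAA (the core bound by PU.1, a factor of myeloid cells). The Alox5 window at chr6:116461129-116461428 had GAGGAA at base 115 and GGGCGG at base 216, counted from the window's 5′ end. The Lta4h window, not printed, had GAGGAA on the opposite strand at base 125.
Alox5: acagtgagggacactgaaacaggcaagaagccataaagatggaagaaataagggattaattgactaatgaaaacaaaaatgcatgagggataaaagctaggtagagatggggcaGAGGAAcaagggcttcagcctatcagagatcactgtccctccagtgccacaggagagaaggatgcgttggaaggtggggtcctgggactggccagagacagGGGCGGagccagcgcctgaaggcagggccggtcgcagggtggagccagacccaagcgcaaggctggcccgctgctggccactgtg
GGGCGG was found in 35.7% and GAGGAA in 28.3% of the 32851 promoter windows of the table and a match describes letters only. The motif AGATAA and the spaced motif bound by STAT6, held by 11.2% and 6.95% of all windows, had no match in the 5 genes' windows.

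Alox5ap (chr5:149264767-149288153, plus strand) encodes the 5-lipoxygenase activating protein, which presents arachidonic acid to the enzyme. A noncoding gene on the other strand, Gm19719, overlaps its last exon. It was a gene of nearly all myeloid cells, with 16353 UMIs in control and 17885 in the depleted library. Levels were 735 CPM (723 to 747) and 801 CPM (789 to 814) in monocyte/macrophage-like cells, 1055 CPM (966 to 1150) and 1202 CPM (1120 to 1290) in neutrophil-like cells, and 732 and 1397 CPM in eosinophil-like cells. Type 2 dendritic cells (cDC2-like) had 670 and 785 CPM and type 1 dendritic cells (cDC1-like) 585 and 726 CPM, but migratory DC-like cells only 52.2 and 28.8 CPM. In NK-like, B-like and melanoma-like cells it lay between 6.55 and 28.2 CPM. A UMI was seen in 4.07% and 0.985% of T-like cells, at medians of 2138.5 and 2327 UMIs per cell, against 89.3% and 92.1% of monocyte/macrophage-like cells, and in 5.77% and 1.43% of melanoma-like cells, at medians of 1678.5 and 2021.5 UMIs. The T-like shares, from 18 and 2 UMIs, stood near the melanoma-like ones, from 3 and 2 UMIs. Whether the T-like counts are background was not tested.

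Control was below NK cell-depleted for Alox5ap in 4 myeloid classes, at ratios of 0.917 (0.896 to 0.938) in monocyte/macrophage-like, 0.877 (0.783 to 0.982) in neutrophil-like, 0.854 (0.777 to 0.939) in cDC2-like and 0.806 (0.698 to 0.930) in cDC1-like cells. In pDC-like cells the ratio was 0.486 (0.306 to 0.786), from 59 and 29 UMIs in 44 and 14 cells. Those cells were not alike in other markers. All 9 B markers were detected in control (2661 CPM in sum) and 2 in the depleted library (772 CPM). The NK markers summed to 389 and 55.2 CPM. The part of these in the ratio was not tested. Thinning to 2000 UMIs left out cells with fewer, 1208 of 5292 in control and 939 of 4506 in the depleted library. The medians of neutrophil-like cells, 1156.5 and 1295 UMIs, lay below that depth. The neutrophil-like cells that stayed held 2 and 29 UMIs of Alox5ap (log2 ratio -1.56) and 0 and 5 of Alox5. Over the 10 monocyte/macrophage-like clusters the level ranged from 652 to 979 CPM in control and from 617 to 1155 CPM in the depleted library, so no cluster was without it. Control was lower past counting error in 5 clusters and higher past it in 0. Among cells with a UMI of Alox5, 200 of 201 and 260 of 266 monocyte/macrophage-like cells also had one of Alox5ap, and 36 of 50 and 50 of 61 neutrophil-like cells did. In T-like cells this was 1 of 9 and 0 of 14. Cells with Alox5 in the monocyte/macrophage-like class were deeper than the rest (medians 8084 and 8008.5 UMIs against 4976 and 5360).

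**Figure D2:**
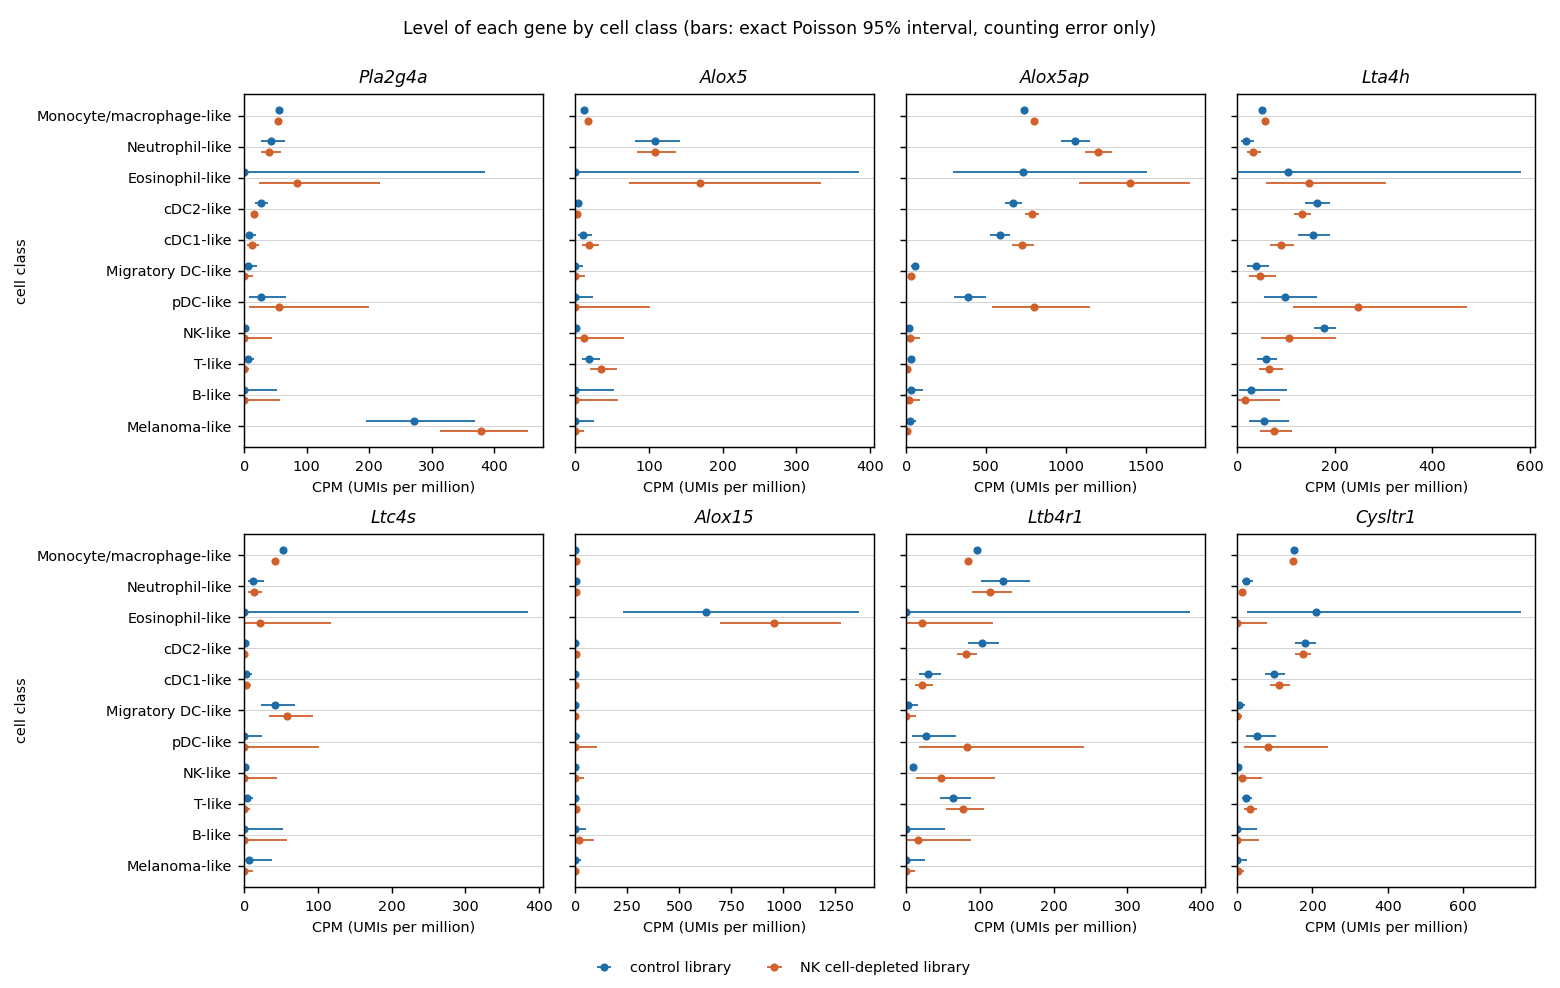
Level of each gene (x axis, CPM, a separate linear scale per gene) in the 11 cell classes, with 1 point per library and bars for the exact Poisson 95% interval. Alox5 was highest in neutrophil-like cells (109 and 108 CPM) among classes with narrow intervals, Pla2g4a in melanoma-like cells (272 and 380 CPM), Lta4h in control NK-like cells (179 CPM) and Alox15 in eosinophil-like cells (627 and 952 CPM).

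Lta4h (chr10:93453411-93484875, plus strand) encodes leukotriene A4 hydrolase, which makes leukotriene B4. It was the only one of the 8 with a high level in NK-like cells, at 179 CPM (157 to 203) over the 566 cells of control, where the other 7 lay between 0 and 16.5 CPM. That class held 15.5% of the control library's Lta4h UMIs. Over all cells the level was 65.2 and 63.9 CPM, a ratio of 1.02 (0.951 to 1.10). T-like cells had 58.9 and 66.2 CPM, so the level in control NK-like cells was above theirs with no overlap of intervals. The gene was also high in cDC2-like cells, at 163 CPM (139 to 190) and 133 CPM (116 to 151), and low in neutrophil-like cells, at 18.4 CPM (8.43 to 35.0) and 32.4 CPM (20.04 to 49.5). Of the neutrophil-like cells with Alox5, 2 of 50 and 4 of 61 also had UMIs of Alox5ap and Lta4h, at medians of 1237.5 and 1367 UMIs per cell.

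In monocyte/macrophage-like cells Lta4h was 51.6 CPM (48.5 to 54.9) in control and 57.6 CPM (54.3 to 61.1) in depleted tumors, a ratio of 0.896 (0.823 to 0.977). The cDC1-like cells went the other way, at 155 CPM (124 to 190) and 89.5 CPM (67.4 to 117), a ratio of 1.73 (1.22 to 2.46) from 89 and 55 UMIs. That cDC1-like ratio depended on how the dendritic cells were divided, since its log2 value of 0.78 was 0.12 at resolution 0.5 (63 and 86 UMIs) and 0.21 with the pathway genes kept in the clustering (61 and 76 UMIs). It was 1.72 with cells of at least 2000 UMIs thinned to 2000 and the others left out (32 and 9 UMIs). The cDC2-like ratio was 1.23 (0.995 to 1.51). Within the monocyte/macrophage-like class, the Dcstamp/AA467197 cluster (88.0 and 84.8 CPM) and the Retnla/Il6 cluster (128 and 90.2 CPM) had the highest levels. The other 8 lay between 33.3 and 50.5 CPM in control and between 42.8 and 76.4 CPM in the depleted library. Control was below depleted in 8 of the 10 clusters, past counting error in the Ccl8/Lyve1, Pf4/Itga9, Vcan/Chil3 and Ace/Ldlrad3 clusters, and above it past counting error in the Retnla/Il6 cluster (1.42, 1.11 to 1.82).

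Ltc4s (chr11:50236461-50238616, minus strand) encodes leukotriene C4 synthase, which begins the cysteinyl branch. The gene Gm26542 overlaps it on the other strand. It was a gene of macrophage clusters: monocyte/macrophage-like cells held 97.5% (96.3% to 98.3%) of its UMIs in control and 96.8% (95.4% to 97.9%) in the depleted library. Control and depleted levels were 91.1 and 82.9 CPM in the Ccl8/Lyve1 cluster, 91.3 and 68.4 CPM in the Retnla/Mmp12 cluster, and 40.2 and 47.1 CPM in the Dcstamp/AA467197 cluster. Clusters led by monocyte genes were near 0, with 1.26 and 2.09 CPM in the Vcan/Chil3 cluster and 0 and 1.54 CPM in the Ace/Ldlrad3 cluster. For the latter a count of 0 allows up to 5.84 CPM in control. The Havcr2/Spint1 cluster had 9.35 and 2.96 CPM. Outside the class, migratory DC-like cells had 41.2 CPM (23.1 to 68.0, 15 UMIs) and 57.6 CPM (32.9 to 93.5, 16 UMIs), while cDC2-like cells held 1 and 0 UMIs. For the Ccl8/Lyve1 cluster the interval lay far above those of the Vcan/Chil3 and Ace/Ldlrad3 clusters in both libraries.

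Summed over the class, Ltc4s was 51.7 CPM (48.6 to 55.0) in control and 41.5 CPM (38.7 to 44.5) in depleted tumors, a ratio of 1.25 (1.13 to 1.37). Control was above depleted in 7 of the 10 clusters, past counting error in 2 of them: the Pf4/Itga9 cluster, at 65.8 and 43.5 CPM (1.51, 1.22 to 1.89), and the Gpnmb/Mmp13 cluster, at 69.3 and 42.1 CPM (1.65, 1.22 to 2.25). In the other 8 clusters the interval of the ratio included 1, and the clusters' ratios were not tested against each other. The Pf4/Itga9 cluster supplied 25.6% of the class's UMIs in control and 13.9% in the depleted library. Within the class, 69 of the 201 cells with Alox5 in control and 100 of the 266 in the depleted library also had Alox5ap and Ltc4s (34.3% and 37.6%). Of the same cells, 71 and 87 also had Alox5ap and Lta4h (35.3% and 32.7%). The promoter window of Ltc4s at chr11:50238483-50238782 had GAGGAA on the opposite strand at base 267 and no GGGCGG.
Ltc4s: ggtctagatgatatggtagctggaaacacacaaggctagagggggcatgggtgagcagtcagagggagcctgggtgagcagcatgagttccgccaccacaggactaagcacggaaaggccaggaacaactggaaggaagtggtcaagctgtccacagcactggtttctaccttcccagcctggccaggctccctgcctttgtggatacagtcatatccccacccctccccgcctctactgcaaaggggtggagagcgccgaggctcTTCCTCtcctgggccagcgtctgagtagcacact

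**Figure D3:**
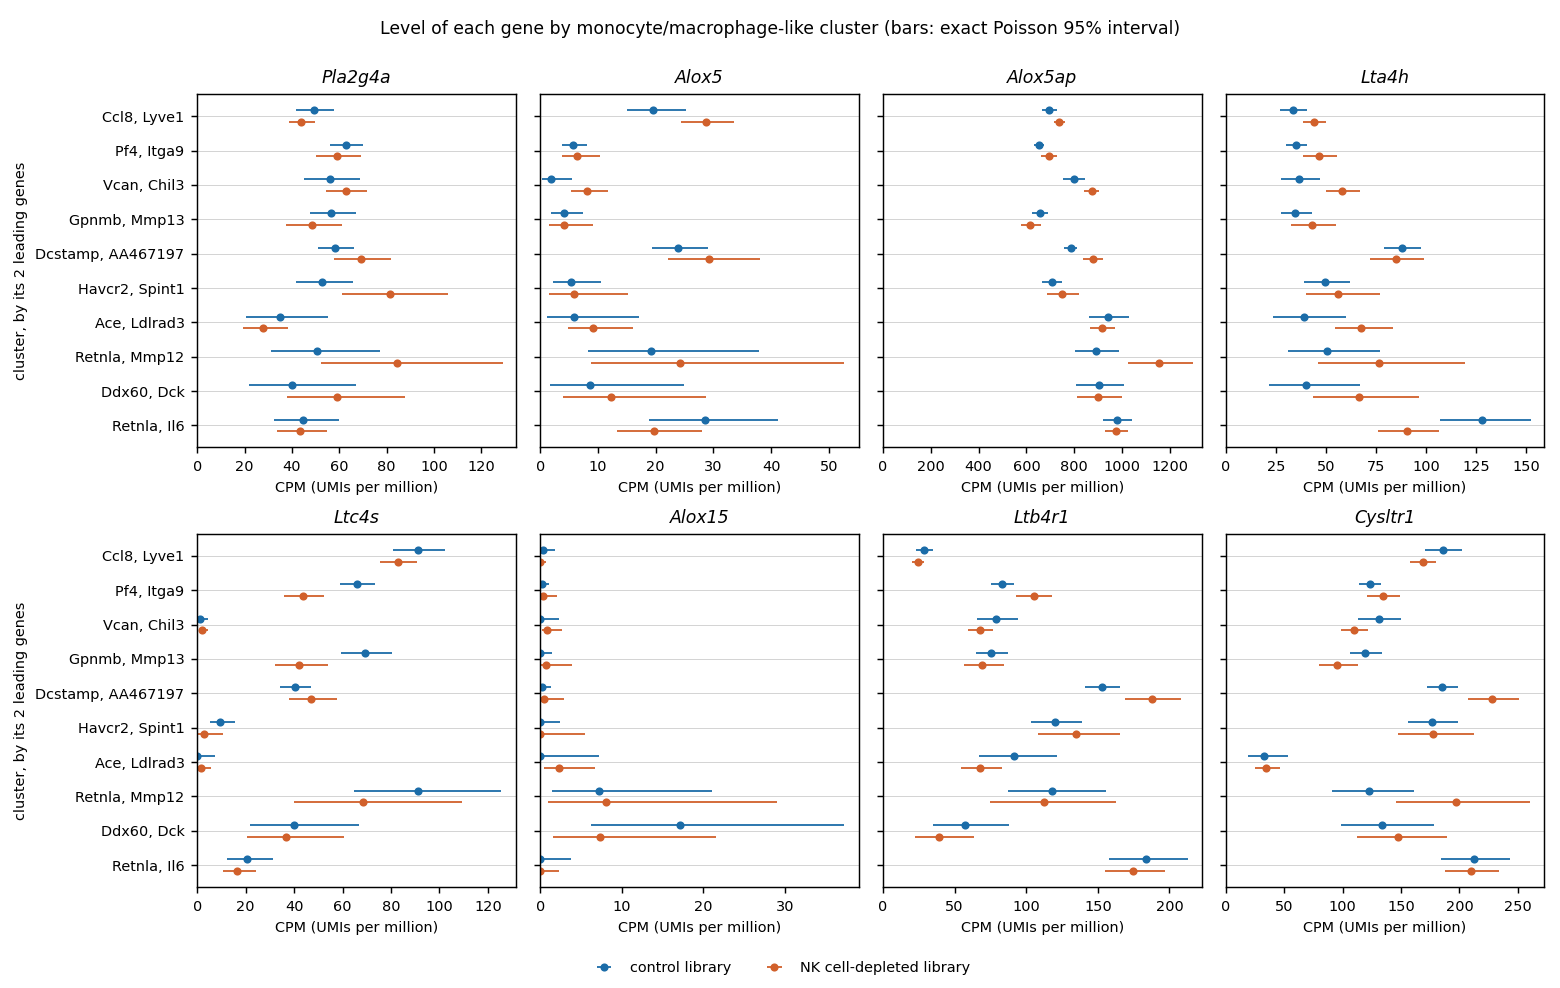
Level of each gene (x axis, CPM, a separate linear scale per gene) in the 10 monocyte/macrophage-like clusters, named by their 2 leading genes, with 1 point per library and bars for the exact Poisson 95% interval. Ltc4s was 91.1 and 82.9 CPM in the Ccl8/Lyve1 cluster, where Ltb4r1 was lowest (28.4 and 24.5 CPM), and near 0 in the Vcan/Chil3 and Ace/Ldlrad3 clusters.

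Alox15 (chr11:70344152-70352031, minus strand) encodes 12/15-lipoxygenase, an enzyme of eosinophils and of some macrophages that leads to lipoxins and related products. It had 19 UMIs in control and 67 in the depleted library. Eosinophil-like cells held 6 of them in control, in 5 of 12 cells, and 45 in the depleted library, in 22 of 71 cells. That is 627 CPM (230 to 1365) and 952 CPM (695 to 1270), a ratio of 0.659 (0.230 to 1.55), and the interval included 1. Leaving out the 5 cells with the most Alox15 UMIs in each library left 0 and 28 UMIs, and the 0 was fixed, since only 5 control cells had any. The share of cells with a UMI was 41.7% (15.2% to 72.3%) and 31.0% (20.5% to 43.1%), at medians of only 721 and 636 UMIs per cell. Monocyte/macrophage-like cells held 12 and 14 UMIs, or 0.599 and 0.735 CPM. Of these, 9 and 5 lay in the Ddx60/Dck and Retnla/Mmp12 clusters. Of the 9 eosinophil markers, 2 were detected in these cells in control and 4 in the depleted library, Siglecf and Ccr3 in both, while Epx, Prg2, Prg3, Ear1 and Clec4a4 were at 0. Their summed neutrophil markers stood at 4390 and 7344 CPM, against 49940 and 52666 CPM in neutrophil-like cells. The eosinophil markers summed to 836 and 1820 CPM, the basophil markers to 1777 and 127 CPM, the mast cell markers to 418 and 0 CPM and the NK markers to 1777 and 0 CPM. The 12 and 71 cells were thus not alike in the markers of other lists, whose part in the Alox15 values was not tested.

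Over all cells Alox15 was 0.766 CPM in control and 2.88 CPM in the depleted library, a ratio of 0.266 (0.151 to 0.448). Fewer cells of a type and less RNA per cell cannot be told apart in such a sum. The number of eosinophil-like cells, 12 and 71, moved with it. Called cell by cell, with at least 3 markers of a list needed, 2 cells reached the eosinophil list. They held 0 of the 19 Alox15 UMIs of control and 2 of the 67 of the depleted library (2.99%). The 12 control cells had only 2 of the 9 eosinophil markers in all, so none of them could reach the list. These shares therefore cannot show where Alox15 lay. Alox15 and Alox5ap were seen together in 2 of 5 and 9 of 22 eosinophil-like cells with Alox15.

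Ltb4r1 (chr14:55765962-55768494, plus strand) encodes the high-affinity receptor of leukotriene B4, which guides neutrophils. Neutrophil-like cells had 131 CPM (100.9 to 167) in control and 114 CPM (89.6 to 143) in depleted tumors, a ratio of 1.15 (0.809 to 1.63). Monocyte/macrophage-like cells had 95.8 CPM (91.6 to 100.2) and 83.8 CPM (79.7 to 88.0), a ratio of 1.14 (1.07 to 1.22). In cDC2-like cells it was 103 and 81.5 CPM, in T-like cells 63.9 and 76.5 CPM, and in melanoma-like cells no UMI was found. Levels ranged widely over the clusters, being highest in the Retnla/Il6 cluster (184 and 175 CPM) and the Dcstamp/AA467197 cluster (153 and 188 CPM) and lowest in the Ccl8/Lyve1 cluster (28.4 and 24.5 CPM). The intervals of these top clusters overlapped in both libraries.

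The class ratio of Ltb4r1 came with a change in the weights of the clusters. The Dcstamp/AA467197 cluster supplied 20.1% of the class's UMIs in control and 10.0% in the depleted library, and the Ccl8/Lyve1 cluster 15.3% and 29.0%. Inside the Dcstamp/AA467197 cluster control was lower (0.816, 0.715 to 0.932), as it was in the Pf4/Itga9 cluster (0.791, 0.678 to 0.924), and in the other 8 clusters the interval included 1. Weighting the clusters equally gave a log2 ratio of 0.0092, against 0.19 as summed. The promoter window at chr14:55765712-55766011 had GAGGAA on the opposite strand at bases 122 and 253 and GGGCGG on the opposite strand at base 220.
Ltb4r1: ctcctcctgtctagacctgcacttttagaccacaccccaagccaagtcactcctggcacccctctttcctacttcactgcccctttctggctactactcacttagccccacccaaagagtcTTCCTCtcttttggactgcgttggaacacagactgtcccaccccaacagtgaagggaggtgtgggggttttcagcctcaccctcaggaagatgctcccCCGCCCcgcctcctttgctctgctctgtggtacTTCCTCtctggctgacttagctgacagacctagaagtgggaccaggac
The neighbouring receptor gene of low affinity, Ltb4r2, had 9 and 11 UMIs in the monocyte/macrophage-like class.

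Cysltr1 (chrX:106574346-106603679, minus strand) encodes a receptor of the cysteinyl leukotrienes, and Gm5127 overlaps it on the other strand. Cysltr1 was 152 CPM (146 to 157) and 148 CPM (143 to 154) in monocyte/macrophage-like cells, a ratio of 1.02 (0.970 to 1.08), and 180 and 174 CPM in cDC2-like cells (1.03, 0.853 to 1.25). For monocyte/macrophage-like cells the interval bounds the difference between the libraries to less than 1.5-fold either way. In cDC2-like cells the log2 ratio of 0.05 ranged from -0.44 to 0.18 over the alternatives. The cDC1-like cells had 97.2 and 111 CPM. Neutrophil-like cells had only 24.6 and 12.3 CPM, from 12 and 8 UMIs, so in both libraries Cysltr1 was lower there than in monocyte/macrophage-like cells, while Ltb4r1 was higher in neutrophil-like cells in both. A UMI of Cysltr1 was seen in 45.1% and 44.7% of monocyte/macrophage-like cells and in 4.81% and 5.91% of T-like cells. The Ace/Ldlrad3 cluster stood apart from the rest of its class, with 33.1 CPM (19.3 to 53.0) and 34.6 CPM (25.2 to 46.3) against 119 to 212 CPM and 95.4 to 228 CPM in the other 9 clusters. The Dcstamp/AA467197 cluster had less in control (0.812, 0.720 to 0.916) and the Gpnmb/Mmp13 cluster more (1.25, 1.02 to 1.55).

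**Figure D4:**
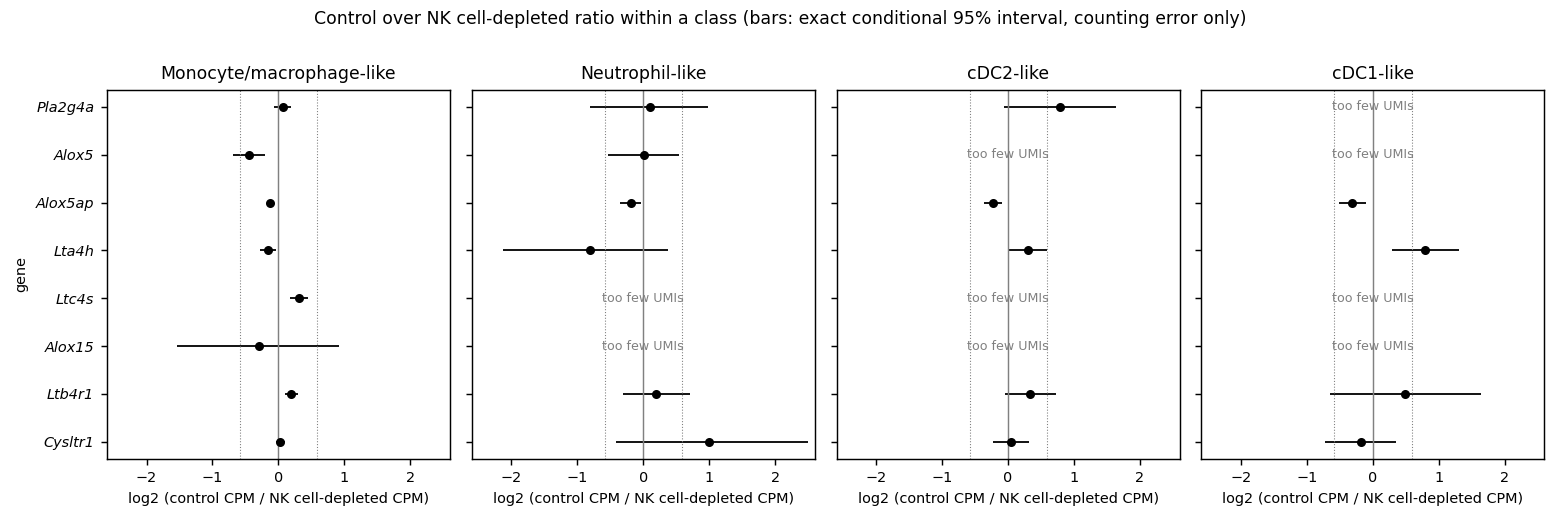
Log2 ratio of control over NK cell-depleted CPM (x axis) for each gene (y axis) in 4 cell classes, with bars for the exact conditional 95% interval and dotted lines at 1.5-fold. In monocyte/macrophage-like cells Alox5 (-0.45), Alox5ap (-0.13) and Lta4h (-0.16) lay below 0 and Ltc4s (0.32) and Ltb4r1 (0.19) above it with intervals that leave out 0, and none passed 1.5-fold.

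Set side by side, no gene of the 8 passed 1.5-fold between the libraries in monocyte/macrophage-like cells, where all 8 had at least 20 UMIs. Of the 11900 genes counted there, 8.76% were past 1.5-fold higher in control and 3.7% lower. The median log2 ratio was -0.05 over the 8 genes and -0.01 over all genes. In neutrophil-like cells 6 of the 8 had enough UMIs, and 1 was past 1.5-fold in each direction: Cysltr1 higher in control (1.99, 0.749 to 5.62) and Lta4h lower (0.569, 0.230 to 1.30), both with intervals that include 1. Among the 4868 genes counted in those cells, 12.7% were past 1.5-fold higher in control and 9.22% lower.

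Of the 36 other genes of the pathway lists, 22 could be counted in monocyte/macrophage-like cells. Control was past 1.5-fold higher for 2 and lower for 0, with a median log2 ratio of 0.15. Of all 11900 genes counted there, 8.76% were higher and 3.7% lower, with a median of -0.01, so 2 of 22 was near the share of all genes. The 2 genes were in the list of cysteinyl leukotriene synthesis, export and conversion, of which 8 of 10 were counted (median 0.07). They were Mgst3, a microsomal glutathione transferase, at 21.5 and 14.0 CPM (1.53, 1.31 to 1.79), and Mgst2, a relative of it that can make leukotriene C4, at 1.25 and 0.368 CPM (3.40, 1.43 to 9.30, from 25 and 7 UMIs). Over both libraries Mgst2 was 24.1 CPM in T-like and 17.5 CPM in NK-like cells, against 0.819 CPM in this class, which held 34.8% of its UMIs. NK markers within the class summed to 75.4 CPM in control and 20.2 CPM in the depleted library. Whether transcripts from lymphoid cells had a part in the Mgst2 ratio was not tested. The phospholipase list had 4 of 9 genes counted, none past 1.5-fold, with a median of 0.28. Pla2g2d of that list stayed under 20 UMIs and was not counted, at 1 UMI in control and 18 in the depleted library (0.0528, 0.00127 to 0.335). The 4 genes of leukotriene B4 breakdown had a median of -0.02, and the 5 of 7 lipid mediator receptors counted a median of -0.35, none past 1.5-fold. Of the 5 other lipoxygenases none reached 20 UMIs. Cotl1, which binds 5-lipoxygenase, was 720 and 805 CPM (log2 ratio -0.16).

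In neutrophil-like cells 8 of the 36 were counted, with 1 past 1.5-fold in each direction, beside 12.7% higher and 9.22% lower over all genes counted there. The higher one was the exporter Abcc1 at 24.6 and 15.4 CPM (1.59, 0.631 to 4.12), whose interval included 1. Fpr2, a formyl peptide receptor that also binds lipoxin A4, was 252 CPM in control and 388 CPM in the depleted library (0.648, 0.518 to 0.808). Cyp4f18, which breaks down leukotriene B4 in neutrophils, was 481 and 521 CPM there (0.924, 0.779 to 1.09).

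By the correlation of log2(CPM + 5) over the 25 clusters, both libraries summed, the gene closest to Alox5 was Tmem154 (r = 0.81), to Alox5ap Fes (0.93), to Ltc4s Pmp22 (0.84) followed by C1qc (0.83), to Cysltr1 Tbxas1 (0.91), to Lta4h Saal1 (0.88), to Ltb4r1 Fxyd5 (0.82), to Pla2g4a Eif4ebp1 (0.85) and to Alox15 Serpinb2 (0.90). Among themselves the closest pair was Alox5ap and Cysltr1 (0.74), while Alox5 and Lta4h were at -0.03. The points are clusters that share libraries, so these values describe likeness only.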

How the data were processed

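Single-cell libraries of 1 control and 1 NK cell-depleted group were compared, with each group taken from the sample labels. The deposited values are UMI counts per gene and barcode, which the authors made with Cell Ranger (version 3.0.2 per the file headers) and its cell calling, and the submitters' processing notes name bcl2fastq and mm10. A deposited table of normalized values pools both libraries and was not used. Cells were kept if they had between 500 and 15000 UMIs, between 200 and 4000 genes and no more than 10% of UMIs from mitochondrial genes. Counts were set to log2(CPM + 1) per cell, and 2000 variable genes without the pathway genes gave 15 principal components, 20 neighbours and Leiden clusters at resolution 1 (leidenalg 0.10.2, scanpy 1.11.5, Python 3.11.15). A cluster was named from a list with at least 2 markers among its 50 leading genes and at least 3 above the rest of the cells, unless another list led its first 10 genes. A cluster not named from 3 or more leading markers was ranked again, against the cells named as other types only. That ranking gave only the monocyte/macrophage name, with at least 3 markers among the 50 leading genes. All monocyte/macrophage-like clusters but the Vcan/Chil3 and Ace/Ldlrad3 clusters were named that way. A cluster of mixed dendritic cells was divided further. These cut-offs were chosen with the clusters in view. Scrublet, at an expected 5%, called 0 of 5292 and 3 of 4506 cells, so it has not worked here and doublets were kept.

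For each class of a library the UMIs were added up and divided by the class total (CPM). Intervals are 95% exact Poisson for levels, Clopper-Pearson for shares and exact conditional binomial for ratios, and 3 counts stand for the limit that a count of 0 allows. They cover counting error only. A log2 ratio has 0.5 UMI added to each sum. A gene was counted in a class with at least 20 UMIs over both libraries, and past 1.5-fold is a size, not a test. All 8 genes are described, and other pathway genes are named where past 1.5-fold, where 1 class held most of their UMIs, or where a count was small. The ratio code was tested on simulated data. Gene members and lists were chosen with earlier results of these data known. Alternatives in cell filters, resolution, class calling, thinning, cluster weights and scaling are given in the closing section.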

Additional observations from a re-analysis of the deposited data

Results flagged for a closer look

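Ratios are control over NK cell-depleted, and the differences between cell classes or clusters named here were not tested. Alox5ap had ratios on both sides of 1 with intervals that leave out 1: 0.917 in monocyte/macrophage-like, 0.877 in neutrophil-like, 0.854 in cDC2-like, 0.806 in cDC1-like and 0.486 in pDC-like cells, but 7.32 in T-like cells, from 18 and 2 UMIs. Whether the T-like counts are background was not tested. The mast cell markers of that cluster moved the same way (375 and 39.3 CPM), and their part was not tested either. Lta4h was lower in control in monocyte/macrophage-like cells (0.896) and higher in cDC1-like cells (1.73). Within the former it was lower in the Ccl8/Lyve1 (0.756), Pf4/Itga9 (0.751), Vcan/Chil3 (0.628) and Ace/Ldlrad3 (0.576) clusters and higher in the Retnla/Il6 cluster (1.42). Cysltr1 was higher in control in the Vcan/Chil3 (1.19) and Gpnmb/Mmp13 (1.25) clusters and lower in the Dcstamp/AA467197 (0.812) and Retnla/Mmp12 (0.622) clusters. For the Vcan/Chil3 cluster the interval of 1.00002 to 1.42 barely left out 1. Melanoma-like cells too deep for the cell filter held 1293 UMIs of Pla2g4a in control and 2971 in the depleted library.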

How the results depend on the processing

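For the 8 log2 ratios in monocyte/macrophage-like cells, 86 of 96 alternative values moved by less than the counting interval and 10 moved further. Some alternatives could hardly move these ratios, so their values are no support. They were removing Scrublet calls (0 and 3 cells), leaving out the few cells with shared barcodes and setting the all-gene median of -0.01 to 0. Without upper limits on UMIs and genes Pla2g4a was -0.074. With at least 2000 UMIs and at most 5% mitochondrial UMIs, Alox5 was -1.16, Alox15 1.24 (8 and 3 UMIs) and Lta4h -0.41, where 18.5% and 14.3% of cells lay in unnamed clusters. Called cell by cell, Lta4h was -0.33. Without the 5 cells with the most UMIs, Alox15 was -1.66 (2 and 7 UMIs). With every cluster at the same weight, Alox5ap was -0.085, Ltb4r1 0.0092, Cysltr1 -0.079 and Pla2g4a -0.19. The cause was not tested. Over all 12 alternatives Alox5 stayed between -1.16 and -0.27 and Ltc4s between 0.27 and 0.37. Of the other log2 ratios, 139 of 152 moved by less than the interval. With cells under 2000 UMIs left out and the rest thinned to 2000, those that moved further in neutrophil-like cells were Alox5 (-1.46, 0 and 5 UMIs), Alox5ap (-1.56, 2 and 29 UMIs) and Ltb4r1 (-0.81, 0 and 3 UMIs). In cDC1-like cells they were Lta4h (1.72) and Cysltr1 (0.87). With the stricter filter they were Pla2g4a in melanoma-like cells (-1.72) and Cysltr1 in cDC2-like cells (-0.31), without upper limits the latter (-0.44), and with the pathway genes kept the latter (-0.32) and Lta4h in cDC1-like cells (0.21). At resolution 0.5 Lta4h in cDC1-like cells was 0.12, and called cell by cell Alox5ap in cDC2-like cells was -0.0071. Without the top 5 cells Alox15 in eosinophil-like cells was -2.59 (0 and 28 UMIs), where the 0 was fixed because only 5 control cells had any. Of the shares of UMIs 107 of 156 moved by less than the interval, and with the stricter filter control monocyte/macrophage-like cells held 39.6% of Alox5, 37.4% of Lta4h and 51.2% of Ltb4r1. Called cell by cell, eosinophil-like cells held 0% and 2.99% of Alox15, but a call needed 3 markers, which no eosinophil-like cell of control could have. Leaving out cells whose barcode occurred in both libraries, and the alternatives for the dendritic, eosinophil-like and melanoma-like classes, were chosen after seeing the data. No paired analysis was possible because each group is 1 library and the labels carry no replicate numbers, and no replicate could be left out. Depth limits Alox15, and every gene in the eosinophil-like and pDC-like cells.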
